A study of Mus musculus with 6 samples.

Results

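The genes described here are the mouse zinc finger genes whose symbol is Zfp followed by a 9 and 2 more digits (Zfp900 to Zfp999). They were picked by symbol alone, so no measured value entered the choice, although the group was proposed with earlier results of these data known. RefSeq lists 62 such symbols, and 49 of them had at least 1 probe on the array, out of 23462 genes that could be named. The 49 genes were read by 70 probes. Of the 49, 48 passed the filter on dim probes and were tested, and Zfp964 was not well above background on any array. The other 13 symbols (Zfp942, Zfp965, Zfp966, Zfp968, Zfp973, Zfp977, Zfp978, Zfp980, Zfp988, Zfp991, Zfp993, Zfp994 and Zfp996) had no matched probe.

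The samples were labelled as acinar cells, the enzyme-secreting cells of the exocrine pancreas, isolated from C57BL/6 mice of 2 genotypes. KCS samples (n = 3) carried Ptf1aCre, a conditional oncogenic allele that Cre switches on, and Setdb1flox/flox. KC samples (n = 3) carried Ptf1aCre and the same oncogenic allele, so both groups share those alleles and differ in the floxed Setdb1 copies. Ptf1aCre drives Cre across the pancreatic lineage, in the progenitors of acinar, ductal and islet cells, and is therefore not restricted to acinar cells. The labels give no age and do not say whether the samples came from separate animals, so p-values measure only the spread between these samples, which may be technical. Each sample was hybridised to 1 one-colour array, and the comparison of the genotypes asks which transcripts differ when Setdb1 is floxed in cells that carry the oncogenic allele.

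Many proteins of this naming series belong to the KRAB zinc finger family. In such a protein an array of zinc fingers reads a DNA sequence, often inside an endogenous retrovirus or another repeat, and the KRAB box recruits the scaffold protein Trim28. Trim28 in turn brings Setdb1, a methyltransferase that places a repressive methyl mark on histone H3, and the marked element is kept silent. The genes lie in clusters of related copies, and clusters on mouse chromosomes 2 and 4 are known from embryonic stem cells as repressors of endogenous retroviruses. Zinc finger gene clusters are themselves known to carry the Setdb1-dependent mark. Most single members have no described function, so the genes are ordered below by their position in the genome.

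Levels are log2 processed signals from which the 75th percentile of the array over all probes was subtracted, so 0 is a probe at that percentile and 1 unit is a doubling in signal. A gene with several probes is represented by the probe with the highest mean over the 6 arrays. A gene is said to be higher, lower or called when limma's moderated test, adjusted by Benjamini-Hochberg over all 27102 rows tested, gave an adjusted p under 0.05. The arrays differed in brightness before scaling. The 75th percentile stood at 347 to 423 scanner units on the KCS arrays and at 61.2 to 68.6 on the KC arrays, and 35366 to 35920 probes were well above background on the KCS arrays, against 26550 to 27237 on the KC arrays. All 48 tested genes were well above background on the 3 KCS arrays, and 39 of them were so on the 3 KC arrays as well. A gene needed to be well above background on 3 of the 6 arrays, so it could pass through the KCS arrays alone, as 5 did (Zfp938, Zfp940, Zfp945, Zfp951 and Zfp982) without being well above background in KC.

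The floxed gene was looked at first. Setdb1 measured -0.28, -0.44 and -0.55 on the KCS arrays, against -0.91, -1.05 and -0.32 on the KC arrays, groups that overlap, with a change of 0.33 ± 0.24 (SE) (limma, adjusted p = 0.27). The position of its probe relative to the floxed part is not known here, so this level checks nothing about recombination.

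The cell type labels were set against marker genes. All 7 acinar markers were lower in KCS, and their summed level on the linear scale was 3.56, 16.4 and 1313 for KCS replicates 1 to 3, against 15749 to 18961 for KC. The sum over 6 fibroblast and stellate markers, all 6 higher, was 1007 to 1247 in KCS and 193 to 258 in KC. For 6 macrophage and leukocyte markers, all 6 higher, it was 235 to 344 in KCS and 18.7 to 29.5 in KC. Of 4 ductal markers 3 were higher, with sums of 51.8 to 159 in KCS and 9.41 to 16.5 in KC, and all 3 islet markers were lower, with sums of 105 to 203 in KCS and 804 to 926 in KC. The 3 endothelial markers (2 higher) summed to 9.61 to 15.9 in KCS and 5.74 to 6.90 in KC, the 3 T and NK markers (2 higher, 1 lower) to 1.03 to 3.66 in KCS and 3.65 to 9.24 in KC, and the 2 B cell markers (0 called) to 0.079 to 0.281 in KCS and 0.111 to 0.201 in KC. The markers thus moved with genotype on the same 6 arrays as the zinc finger genes, and their part in the results below was not tested. In bulk samples fewer cells of a type and less RNA per cell cannot be told apart.

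Of the 48 zinc finger genes tested, 15 were higher in KCS, 9 were lower and 24 were not called. The 15 include Zfp945, Zfp951 and Zfp982, whose KC signals were not well above background on any array. Over all 27102 rows 60.3% were called, with 25.9% called higher and 34.4% called lower. Only 16263 of these rows carry a gene symbol, as all 48 zinc finger genes do. Among those 16263 rows 32.4% were called higher and 29.1% lower. The 31.25% of the zinc finger genes called higher and the 18.75% called lower are to be read against both sets of shares. Their higher share is near that of the rows with a symbol. The median log2 fold change was 0.24 over the 48 genes (0.16 with genes at background in 1 group set to their bound). It was -0.19 over all rows and 0.07 over the rows with a symbol. The median of the 48 genes was 0.29 on the first slide and 0.25 on the second. At an unadjusted p under 0.05 the number of genes was 26. On the KCS arrays 18 of the 48 genes lay above every KC array, 9 lay below every KC array and 21 overlapped, where 68.2% of all rows did not overlap, with 29.8% above and 38.4% below. The 24 called genes had the same sign on both slides, which is fixed for the 15 higher and 8 lower ones whose groups do not overlap. The split of the calls moved with the scaling: centring each array on its median gave 23 higher and 2 lower and moved the median of all rows to 0.16, and scaling to the spike-in controls gave 46 higher and 0 lower (limma, with 0 lower at an unadjusted p under 0.05 as well) and moved the median of all rows to 2.70. Both scalings move every gene by the same amount, so the zinc finger median stays 0.43 above that of all rows by construction. With normexp background correction and quantile normalization this difference was 0.20. Leaving out single arrays gave 10 to 13 higher and 4 to 7 lower, with 4 lower without KCS replicate 2 and 5 lower without KCS replicate 3, KC replicate 2 or KC replicate 3.

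**Figure D1:**
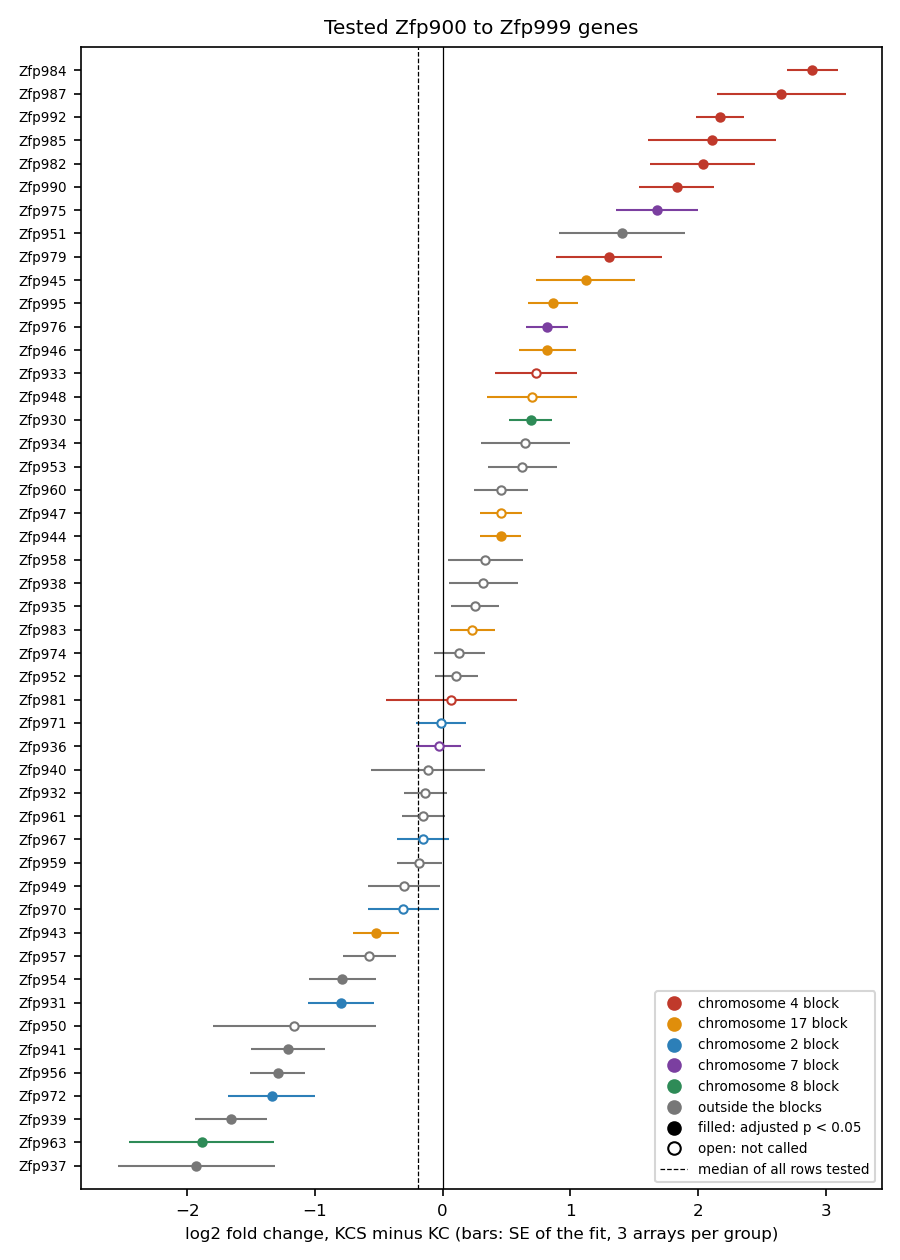
Log2 fold change of KCS over KC (x axis) with its SE for each of the 48 tested zinc finger genes (rows, ordered by change). Colour gives the chromosomal neighbourhood, and points are filled where limma called the gene and open where it did not. The called genes run from -1.93 (Zfp937) to 2.90 (Zfp984).

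The genes were placed in neighbourhoods from the RefSeq annotation, a neighbourhood being at least 3 of the symbols on 1 chromosome with successive starts under 1 Mb apart. There were 5 of these, on chromosomes 2, 4, 7, 8 and 17, with 28 of the 49 genes on the array. On chromosome 4 the result was 7 of 9 higher and 0 lower, on chromosome 17 it was 4 of 8 higher and 1 lower, and on chromosome 7 it was 2 of 3 higher and 0 lower. On chromosome 2, 0 of 5 were higher and 2 were lower, and on chromosome 8 both tested genes were called, 1 in each direction. Of the 21 genes outside the neighbourhoods 1 was higher and 5 were lower. The median log2 fold changes were 2.04, 0.58, 0.82, -0.31 and -0.14 for chromosomes 4, 17, 7 and 2 and for the genes outside. The chromosome 4 median is the fitted value of Zfp982, which is not well above background in KC, and with such genes at their bound the medians were 1.83 for chromosome 4 and 0.46 for chromosome 17. Without the 9 genes of chromosome 4 the remaining 39 had 8 higher and 9 lower and a median of -0.01. The neighbourhood of chromosome 4 was noticed in these data, so its counts are a description. Copies in a cluster are alike in sequence, and the probe sequences are not used here, so a probe may also read a near-identical neighbour and single genes within a cluster are uncertain.

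**Figure D2:**
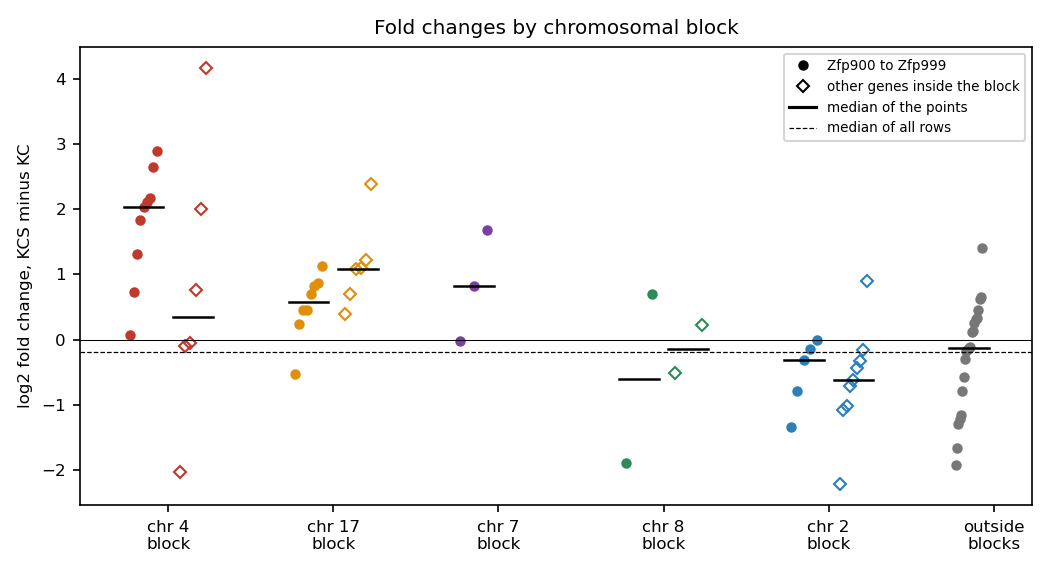
Log2 fold change of KCS over KC (y axis) for each tested zinc finger gene, set out by neighbourhood (x axis). Filled circles are the genes from Zfp900 to Zfp999, and open diamonds are tested genes with other names inside a neighbourhood. The circles of chromosome 4 lie between 0.07 and 2.90, and its diamonds between -2.03 (4933438K21Rik) and 4.17 (Znf41-ps). The circles outside the neighbourhoods start at -1.93 (Zfp937). Zfp982, Zfp945, Zfp951, Zfp938, Zfp940, Znf41-ps, Vmn2r111 and Gm16386 are drawn at fitted values against KC arrays on which they are not well above background.

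The 14 symbols of the chromosome 4 neighbourhood include 9 genes that were tested. Several of the promoters share sequence, so 4 are printed here as the 250 bases before an annotated start, from RefSeq with build GRCm38.p6. Zfp984, Zfp987 and Zfp982 were called higher and Zfp981 was not called. The windows are chr4:147809789-147810038, minus strand for Zfp984, chr4:146097062-146097311, plus strand for Zfp987, chr4:147492167-147492416, plus strand for Zfp982 and chr4:146514670-146514919, plus strand for Zfp981. Capitals mark a word of 15 bases that all 4 share. Zfp982 has 3 windows in the table, and the printed one is the only one of them with the word.
Zfp984: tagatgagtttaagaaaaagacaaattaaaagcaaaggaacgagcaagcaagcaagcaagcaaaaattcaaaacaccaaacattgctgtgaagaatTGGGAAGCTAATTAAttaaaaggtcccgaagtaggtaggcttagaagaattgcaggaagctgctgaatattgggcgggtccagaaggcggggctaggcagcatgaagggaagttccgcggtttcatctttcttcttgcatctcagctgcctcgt
Zfp987: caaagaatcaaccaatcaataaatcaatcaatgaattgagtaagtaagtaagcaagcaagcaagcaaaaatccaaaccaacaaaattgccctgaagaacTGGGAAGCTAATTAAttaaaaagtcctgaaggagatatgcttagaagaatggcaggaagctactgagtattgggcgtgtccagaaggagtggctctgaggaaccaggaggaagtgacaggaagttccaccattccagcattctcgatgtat
Zfp982: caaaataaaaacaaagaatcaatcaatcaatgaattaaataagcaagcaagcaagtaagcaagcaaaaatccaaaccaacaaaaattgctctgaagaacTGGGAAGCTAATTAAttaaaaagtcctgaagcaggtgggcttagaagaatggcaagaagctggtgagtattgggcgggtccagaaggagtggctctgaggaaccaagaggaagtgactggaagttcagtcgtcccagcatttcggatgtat
Zfp981: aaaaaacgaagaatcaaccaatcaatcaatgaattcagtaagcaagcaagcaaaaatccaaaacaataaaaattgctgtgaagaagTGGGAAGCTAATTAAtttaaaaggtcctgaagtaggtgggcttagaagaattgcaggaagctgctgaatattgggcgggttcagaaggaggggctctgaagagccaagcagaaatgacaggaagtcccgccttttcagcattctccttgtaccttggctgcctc

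The capital letters spell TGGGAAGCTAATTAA, which was found as the longest word shared by at least 8 of the 12 windows of this neighbourhood and was searched on both strands (reverse complement TTAATTAGCTTCCCA). It was thus chosen from these windows. Over all 32851 promoter windows in the table it stood in 12 (0.0365%), each of a different gene and each on chromosome 4. The 12 genes were 8 of the zinc finger genes described here (Zfp979, Zfp980, Zfp981, Zfp982, Zfp984, Zfp985, Zfp987 and Zfp988) and 4 others (Gm13212, Zfp600, Rex2 and Zfp534). Of the 10 that were tested 7 were higher in KCS, 0 were lower and 3 (Zfp981, Zfp600 and Rex2) were not called. Over all rows 25.9% were called higher and 34.4% lower. Of the 7, 5 are zinc finger genes already counted for chromosome 4, so this count largely restates that of the neighbourhood. The 7 include Zfp982, which was not well above background in KC. They also include Zfp985, which was well above background on only 1 KC array. The word is a description of shared sequence, and no factor is assigned to it. The 8 windows of the zinc finger genes with the word were 52.4% to 88.8% identical to each other in pairs (median 72.2%), by edit distance over 250 bases. Zfp982 and Zfp987 were 87.2% identical there, and Zfp981, which was not called, was 76.8% identical to Zfp982. The Zfp993 window of the same neighbourhood lacks the word and was 38.8% to 45.6% identical to the others. The windows of the neighbourhood held a median of 3 CpG dinucleotides and 40.8% G and C, and over all windows in the table the medians were 6 and 52.4%. Zfp990 and Zfp992, both called higher, had no window in the table.

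Zfp984 had the largest fitted change of the 48 genes. Its scaled log2 level was 1.16, 0.83 and 0.98 on the KCS arrays, against -2.14, -1.70 and -1.87 on the KC arrays. The groups lay far apart, the KCS samples within 0.33 of each other, and the log2 fold change was 2.90 ± 0.20 (SE) with limma's adjusted p = 0.000133. It was 3.31 on the first slide and 2.69 on the second. The level of Zfp992 was 0.89, 0.72 and 0.91 on the KCS arrays, against -1.10, -1.36 and -1.54 on the KC arrays. The KCS samples were again close together and above every KC sample, at a log2 fold change of 2.17 ± 0.19 (SE) and adjusted p = 0.00024 by limma. The levels of Zfp990 were 0.71, 0.40 and 1.17 on the KCS arrays, against -0.61, -1.33 and -1.28 on the KC arrays, which do not overlap, and its change was 1.83 ± 0.30 (SE) (limma, adjusted p = 0.00223).

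The other 4 called genes of the chromosome 4 neighbourhood had a wider spread among the KCS samples. Zfp987 measured 0.27, 0.71 and 1.85 on the KCS arrays, against -0.94, -2.01 and -2.18 on the KC arrays, with KCS replicate 3 highest and no overlap. Its log2 fold change was 2.65 ± 0.50 (SE) (limma, adjusted p = 0.00442), at 1.21 on the first slide and 3.37 on the second. Zfp985 measured -1.67, -1.35 and 0.06 on the KCS arrays, against -3.65, -2.65 and -3.0 on the KC arrays, and only 1 KC array was well above background. Every KCS sample was above every KC sample, with a change of 2.11 ± 0.50 (SE) and adjusted p = 0.0108 in limma. On the 3 KC arrays Zfp982 was not well above background, and it measured -1.72, -2.06 and -0.73 on the KCS arrays, against -3.38, -3.17 and -4.08 on the KC arrays. Its KC values are bounds, which puts KCS at least 2.89-fold higher. The adjusted p = 0.00567 (limma) belongs to the fitted change of 2.04 and not to the bound. Zfp979 measured -0.28, 0.43 and 1.30 on the KCS arrays, against -0.98, -0.45 and -1.03 on the KC arrays, without overlap, and its change of 1.30 ± 0.42 (SE) gave adjusted p = 0.0334 in limma. The call of Zfp979 ended without KCS replicate 2 or 3 or KC replicate 1 or 3, at adjusted p = 0.0588 to 0.0965 and log2 fold changes of 0.89 to 1.68 over the 6 omissions. The calls of Zfp984, Zfp987, Zfp992, Zfp985, Zfp982 and Zfp990 held without any 1 array.

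**Figure D3:**
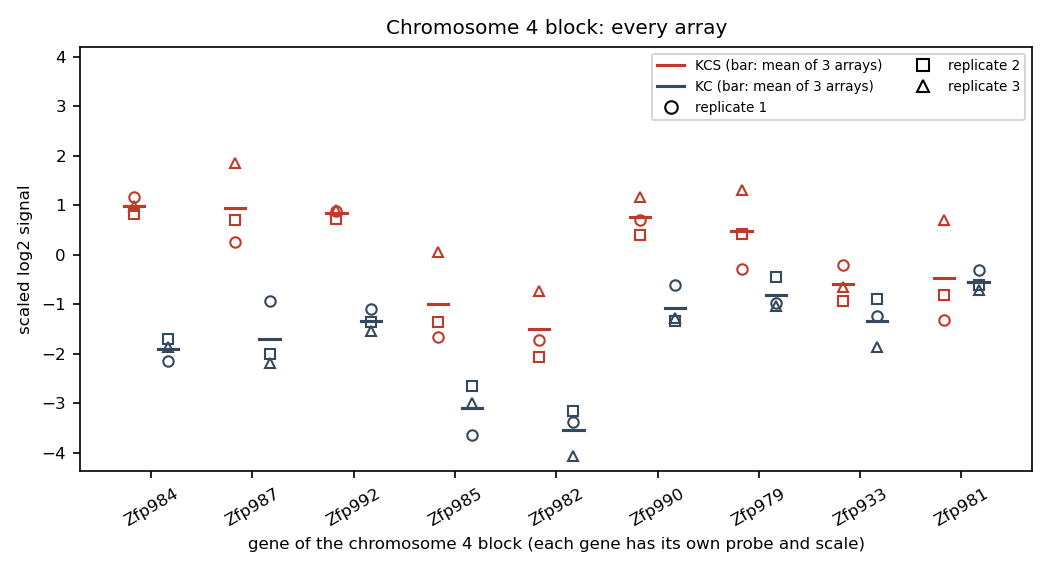
Scaled log2 level (y axis) on each of the 6 arrays for the 9 tested zinc finger genes of the chromosome 4 neighbourhood, KCS arrays left of KC arrays for each gene. In 7 genes every KCS array lies above every KC array, and in Zfp933 and Zfp981 the groups overlap.

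Zfp933 and Zfp981, the remaining genes of that neighbourhood, were not called. Zfp933 measured -0.20, -0.94 and -0.65 on the KCS arrays, against -1.24, -0.90 and -1.86 on the KC arrays, and its groups overlapped. The log2 fold change was 0.73 ± 0.32 (SE) with adjusted p = 0.0871 in limma, and its other tested probe had a change of -0.50. Its promoter window lacks the shared word and was at most 47.6% identical to the other windows of the neighbourhood. Zfp981 measured -1.32, -0.82 and 0.71 on the KCS arrays, against -0.31, -0.60 and -0.72 on the KC arrays, so KCS replicate 3 was above all KC samples and KCS replicates 1 and 2 were below all of them. The change was 0.07 ± 0.51 (SE), at -1.01 on the first slide and 0.61 on the second (limma, adjusted p = 0.916). In Zfp600 and Rex2, which lie in the same region, KCS replicate 3 was likewise the highest and KCS replicate 1 the lowest of the 6 arrays. Zfp600 measured -1.04, -0.47 and 0.98 on the KCS arrays, against 0.57, -0.23 and -0.60 on the KC arrays, and Rex2 measured -1.27, -0.75 and 0.76 on the KCS arrays, against -0.05, -0.42 and -0.62 on the KC arrays.

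KCS replicate 3 was the highest KCS array in 7 of the 9 chromosome 4 genes (77.8%), in 17 of the other 39 genes (43.6%) and in 32.9% of all rows. The difference of KCS replicate 3 from the mean of KCS replicates 1 and 2 had a median of 1.17 over the 9 genes, 0.11 over the other 39, -0.06 over the other Zfp genes and -0.03 over all rows. It was 1.78 for Zfp981, 1.57 for Zfp985, 1.36 for Zfp987, 1.23 for Zfp979 and 1.17 for Zfp982, and 0.10 for Zfp992, -0.02 for Zfp984 and -0.08 for Zfp933. The same array also had the highest acinar, ductal and islet marker sums of the KCS arrays, at 1313, 159 and 203. Its macrophage and leukocyte sum (235) and its endothelial sum (9.61) were the lowest of the KCS arrays. Without KCS replicate 3, 6 of the 9 genes were called higher and the median change was 1.63. The part of that array's other features in these values was not tested.

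The genes that lie among these 9 on chromosome 4, but carry other names, were measured too. Of 6 tested, 3 were higher (50%) and 0 were lower, where 25.9% and 34.4% of all rows were. Gm13212 had a log2 fold change of 2.0 ± 0.30 (SE) (limma, adjusted p = 0.0016) and Zfp534 one of 0.76 ± 0.20 (SE) (limma, adjusted p = 0.0166). Znf41-ps was not well above background in KC, which puts KCS at least 5.72-fold higher. The adjusted p = 0.000158 (limma) belongs to its fitted change of 4.17 and not to the bound. The other 3 were Zfp600, Rex2 and 4933438K21Rik, and they were not called.

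On chromosome 17 the 8 tested genes had a median log2 fold change of 0.58, and 7 of the 8 changes were positive. Zfp995 measured 3.28, 3.02 and 3.40 on the KCS arrays, against 2.58, 2.31 and 2.23 on the KC arrays, groups that lie apart by 0.43, with a change of 0.86 ± 0.20 (SE) and adjusted p = 0.00918 in limma. Zfp946 measured 2.0, 1.58 and 1.94 on the KCS arrays, against 1.34, 0.86 and 0.87 on the KC arrays, and changed by 0.82 ± 0.22 (SE) (limma, adjusted p = 0.0185), and this call ended without KCS replicate 1 or 3 or KC replicate 2 or 3 (adjusted p = 0.0536 to 0.0584). Zfp944 measured -0.60, -0.76 and -0.57 on the KCS arrays, against -1.02, -1.14 and -1.16 on the KC arrays, and changed by 0.45 ± 0.16 (SE) (limma, adjusted p = 0.0489), and leaving out any 1 of the 6 arrays ended its call (adjusted p = 0.0696 to 0.127). Zfp945 was not well above background in KC and measured -2.62, -2.95 and -3.0 on the KCS arrays, against -3.34, -3.76 and -4.82 on the KC arrays. By its bound it was at least 1.13-fold higher. The adjusted p = 0.044 (limma) belongs to the fitted change of 1.12 and not to the bound. KCS replicates 2 and 3 lay below the lowest signal well above background on KC replicate 3, which was -2.92. The call of Zfp945 ended without KCS replicate 1, 2 or 3 or KC replicate 2 or 3 (adjusted p = 0.058 to 0.114). Zfp947, Zfp948 and Zfp983 were not called, with changes of 0.46, 0.70 and 0.23. Among 6 tested genes with other names in the same neighbourhood 5 were higher (83.3%) and 0 were lower. Over all rows these shares were 25.9% and 34.4%. Zfp760 changed by 1.09 ± 0.18 (SE) and Zfp820 by 1.22 ± 0.24 (SE) (limma, adjusted p = 0.00245 and 0.00479). Vmn2r111 and Gm16386, also among the 5, were not well above background in KC and passed the filter through the KCS arrays alone. By its bound Vmn2r111 was at least 2.5-fold higher, and Gm16386 has no bound that puts it higher.

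Zfp943 on chromosome 17 was read by 2 probes that were called in opposite directions. The probe that represents the gene measured 1.63, 1.72 and 1.62 on the KCS arrays, against 1.96, 2.20 and 2.38 on the KC arrays, a change of -0.52 ± 0.18 (SE) with adjusted p = 0.0444 in limma. The second probe measured -0.87, -1.24 and -0.83 on the KCS arrays, against -2.08, -2.25 and -1.98 on the KC arrays, a change of 1.12 with an adjusted p of 0.00288 in limma. Each probe keeps its groups apart, so the direction of Zfp943 is not settled by these arrays. The mean of both probes changed by 0.30 and was not called (limma, adjusted p = 0.169), and the lower call of the first probe ended without KCS replicate 1, 2 or 3 or KC replicate 2 or 3 (adjusted p = 0.0892 to 0.117). Of the 12 genes with several tested probes only Zfp943 had calls both ways. Both probes of Zfp931 were called lower, at -0.80 and -0.81. For Zfp932, Zfp952 and Zfp961 the representing probe was not called and another was called lower.

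On chromosome 7 Zfp975 and Zfp976 were called higher. Zfp975 measured 3.37, 4.03 and 4.55 on the KCS arrays, against 2.18, 2.51 and 2.23 on the KC arrays, with the KCS samples spread over 1.18 and all of them above KC. Its log2 fold change was 1.68 ± 0.32 (SE) (limma, adjusted p = 0.00439). Zfp976 measured 3.48, 3.36 and 3.63 on the KCS arrays, against 2.71, 2.66 and 2.64 on the KC arrays, with a narrow spread in both groups and a change of 0.82 ± 0.16 (SE) (limma, adjusted p = 0.00553). Zfp936, the other tested gene of that neighbourhood, measured 1.45, 1.24 and 1.55 on the KCS arrays, against 1.55, 1.47 and 1.32 on the KC arrays, and the groups overlapped with a change of -0.03 (limma, adjusted p = 0.895). On chromosome 8 Zfp930 measured 2.61, 2.49 and 2.80 on the KCS arrays, against 1.97, 1.89 and 1.96 on the KC arrays, and was higher by 0.69 ± 0.17 (SE) (limma, adjusted p = 0.0121). Zfp963 in the same neighbourhood measured -2.68, -4.82 and -4.45 on the KCS arrays, against -1.70, -2.43 and -2.16 on the KC arrays. Its groups did not overlap and the change was -1.89 ± 0.57 (SE) (limma, adjusted p = 0.0267). The call of Zfp963 ended without KCS replicate 2 or 3 or KC replicate 1, 2 or 3 (adjusted p = 0.0503 to 0.079). It also ended under quantile normalization and under median centring (limma, adjusted p = 0.0515 and 0.0554). With normexp background correction and quantile normalization the change was -0.36 (limma, adjusted p = 0.0868). Zfp963 was dim, at 12.7 to 20.5 scanner units in KC and 14.9 to 61.4 in KCS.

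On chromosome 2 no gene was called higher, and all 5 changes were negative. Zfp972 measured -2.17, -2.49 and -2.57 on the KCS arrays, against -0.49, -0.98 and -1.75 on the KC arrays, with the KCS samples below every KC sample and a change of -1.34 ± 0.34 (SE) (limma, adjusted p = 0.0141). Zfp931 measured 0.19, -0.44 and -0.47 on the KCS arrays, against 0.74, 0.68 and 0.25 on the KC arrays, and its change was -0.80 ± 0.26 (SE) (limma, adjusted p = 0.0353). The call of Zfp931 ended without KCS replicate 2 or 3 or KC replicate 1 or 2 (adjusted p = 0.0923 to 0.114). Median centring ended the calls of Zfp972 and Zfp931 (limma, adjusted p = 0.0566 and 0.217). With normexp background correction and quantile normalization the change of Zfp972 was -0.57 (limma, adjusted p = 0.043). Zfp967, Zfp970 and Zfp971 were not called, at -0.15, -0.31 and -0.01. Zfp971 had the smallest change of the 48 genes and measured -2.85, -3.26 and -3.13 on the KCS arrays, against -3.26, -2.96 and -2.98 on the KC arrays. The promoter windows of this neighbourhood were 48% to 100% identical in pairs, with Zfp965 and Zfp971 at 97.2%, and the called genes Zfp931 and Zfp972 did not exceed 76% with any of them. Of the 9 tested genes with other names between them 1 was higher (11.1%) and 4 were lower (44.4%). Over all rows these shares were 25.9% and 34.4%. Gm14296 changed by -2.22 ± 0.37 (SE) (limma, adjusted p = 0.00254). Gm14295 was the 1 called higher, at 0.90 ± 0.17 (SE) (limma, adjusted p = 0.004), and it is named after its value was seen, as are the other genes between the members.

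Outside the neighbourhoods 5 of the 21 genes were called lower (23.8%), 1 was called higher (4.76%) and 15 were not called. Over all rows 34.4% were called lower and 25.9% higher. Zfp939 measured -4.45, -3.87 and -3.53 on the KCS arrays, against -2.15, -2.58 and -2.15 on the KC arrays, with a change of -1.66 ± 0.28 (SE) (limma, adjusted p = 0.00283). Zfp956 measured 1.07, 0.53 and 0.53 on the KCS arrays, against 2.10, 1.88 and 2.03 on the KC arrays, KC samples within 0.22 of each other, and changed by -1.29 ± 0.21 (SE) (limma, adjusted p = 0.00249). Zfp941 measured -2.42, -2.57 and -2.20 on the KCS arrays, against -0.59, -1.48 and -1.48 on the KC arrays, and changed by -1.21 ± 0.29 (SE) (limma, adjusted p = 0.0112). In all 3 the KCS samples lay below every KC sample, and no omission of 1 array ended a call. With normexp background correction and quantile normalization the changes were -0.34 for Zfp939, -1.11 for Zfp956 and -0.50 for Zfp941. Median centring ended the call of Zfp941 (limma, adjusted p = 0.0504). Zfp939 was dim, at 11.5 to 15.04 scanner units in KC, where the lowest signals well above background were 7.80 to 8.09. Zfp954 measured 0.64, 0.58 and 0.89 on the KCS arrays, against 1.61, 1.01 and 1.85 on the KC arrays. It changed by -0.79 ± 0.26 (SE) (limma, adjusted p = 0.0375). Its call ended without KCS replicate 1, 2 or 3 or KC replicate 1 or 3 (adjusted p = 0.0516 to 0.112). Median centring ended it as well (limma, adjusted p = 0.19). Zfp951, on chromosome 5, was the 1 gene called higher. It was not well above background in KC and measured -2.46, -2.47 and -2.77 on the KCS arrays, against -3.22, -5.13 and -3.58 on the KC arrays. By its bound it was at least 1.38-fold higher. The adjusted p = 0.0451 (limma) belongs to the fitted change of 1.41 and not to the bound. The call of Zfp951 ended without KCS replicate 1, 2 or 3 or KC replicate 3 (adjusted p = 0.0636 to 0.112).

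Zfp937, Zfp950 and Zfp932, also outside the neighbourhoods, had bright probes in both groups. Zfp937 measured 7.28, 7.44 and 8.26 on the KCS arrays, against 8.20, 10.20 and 10.37 on the KC arrays, so KC replicate 1 fell within the range of the KCS samples and the groups overlapped. The change was -1.93 ± 0.62 (SE) (limma, adjusted p = 0.0331), the call ended without KCS replicate 1 or 2 or KC replicate 2 or 3 (adjusted p = 0.0885 to 0.102), and the second probe of the gene changed by 0.32 without a call. After quantile normalization the change of Zfp937 was -0.09 (limma, adjusted p = 0.902). Zfp950 measured 3.23, 3.50 and 4.93 on the KCS arrays, against 3.88, 5.51 and 5.75 on the KC arrays, with a like order over the KC arrays, and was not called at -1.16 ± 0.64 (SE) (limma, adjusted p = 0.159). Zfp932, known in mouse embryonic stem cells as a repressor of endogenous retroviruses, measured 2.64, 2.53 and 2.83 on the KCS arrays, against 2.80, 2.84 and 2.78 on the KC arrays. Its groups overlapped and the change was -0.14 ± 0.17 (SE) (limma, adjusted p = 0.508), while its second probe was called lower at -0.84. Zfp952 measured -0.12, -0.23 and -0.38 on the KCS arrays, against -0.42, -0.32 and -0.32 on the KC arrays, a change of 0.11 ± 0.17 (SE) (limma, adjusted p = 0.595).

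The lower calls moved with the scale. Before scaling, 7 of the 9 genes called lower had a higher processed signal on every KCS array than on any KC array. Zfp956 gave 502 to 825 scanner units in KCS and 249 to 286 in KC, Zfp931 gave 250 to 449 in KCS and 72.7 to 112 in KC, and Zfp943 gave 1066 to 1393 in KCS and 259 to 319 in KC. Zfp939 gave 18.0 to 30.01 in KCS and 11.5 to 15.04 in KC. Only Zfp963 (14.9 to 61.4 in KCS, 12.7 to 20.5 in KC) and Zfp937 (60982 to 106435 in KCS, 19601 to 80930 in KC) overlapped on that scale. A lower call therefore means lower relative to the 75th percentile of the same array, and spike-in scaling, which adds the same amount to every gene, puts all 9 fold changes above 0 by construction. The higher calls on chromosome 4 numbered 7 after quantile normalization, 8 after median centring and 9 after spike-in scaling. With normexp background correction and quantile normalization they also numbered 7, but the changes were smaller. The median over the 9 tested genes was then 1.03, against 2.04 as first given. The 7 called genes ran from 0.90 (Zfp979) to 1.97 (Zfp984), against 1.30 and 2.90 for these 2 genes as first given.

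**Figure D4:**
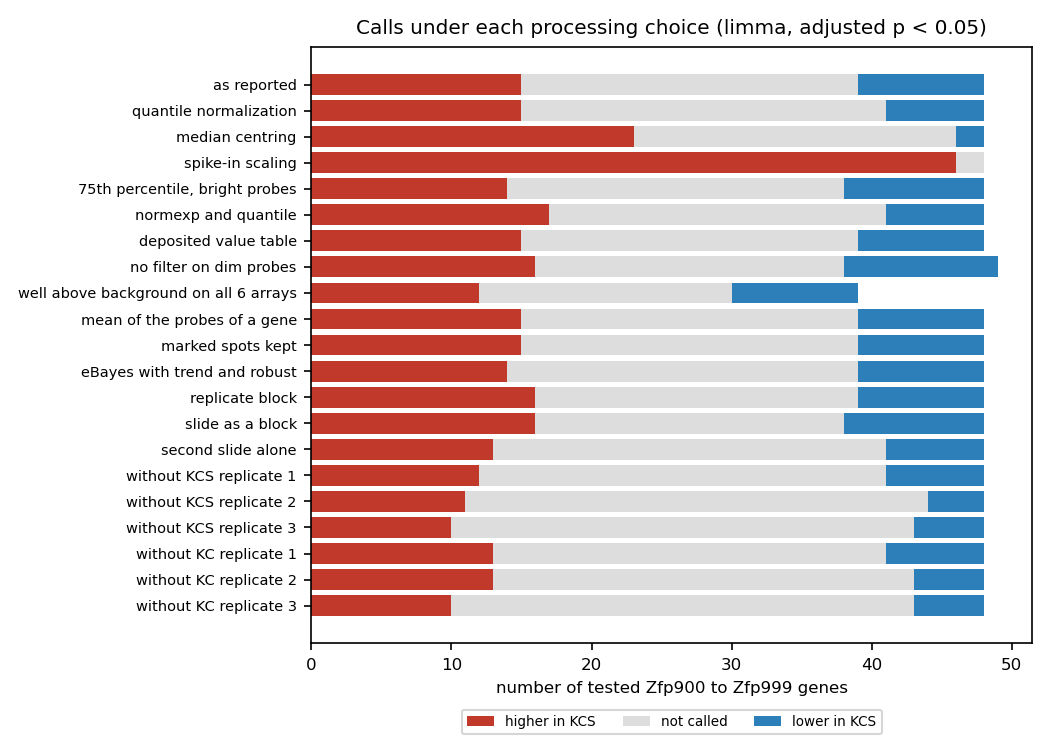
Number of the tested zinc finger genes called higher, lower or not called (bars) under each way of processing. The higher calls outnumber the lower calls under all the settings shown, and spike-in scaling leaves 46 higher and 0 lower.

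Replicate 1 of both groups was hybridised on 1 slide, called the first here, and replicates 2 and 3 on a second. Within the second slide alone 13 genes were higher and 7 were lower, and with the slide as a block 16 were higher and 10 were lower. On the first slide there is 1 array per group and so no test. The sign of the change was the same on both slides in 42 of the 48 genes. Non-overlap of the groups fixes this for the 18 genes above and the 9 genes below every KC array. For the 9 chromosome 4 genes the median was 1.32 on the first slide and 2.18 on the second. The spread within a group was of the same order as for other genes, with a median SD over the 48 genes of 0.21 in KCS and 0.27 in KC, against 0.27 and 0.31 over all rows.

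**Figure D5:**
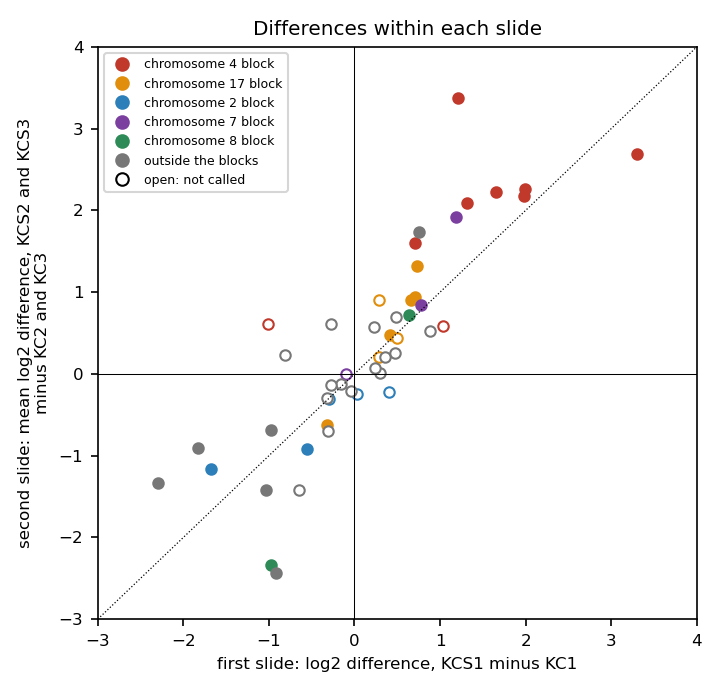
Log2 fold change of KCS over KC on the first slide (x axis, 1 array per group) and on the second (y axis, 2 arrays per group) for each of the 48 tested zinc finger genes. The 24 called genes lie in the quadrants where both slides have the same sign, which non-overlap of the groups fixes for 15 higher and 8 lower of them.

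The other mouse genes named Zfp and a number served as a comparison. Of 283 tested (303 on the array), 76 were higher (26.9%) and 53 were lower (18.7%), with a median log2 fold change of 0.11, where the genes from Zfp900 to Zfp999 had 31.25% higher, 18.75% lower and a median of 0.24. The difference between the lists was not tested. Of the 283 genes, 94 lay above and 74 lay below every KC array, and 30 were not well above background on the 3 KC arrays. Over all rows, and not over these genes, the shares above and below were 29.8% and 38.4%.

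The machinery with which KRAB zinc finger proteins act was taken as a list of 30 genes. Of the 29 tested, 10 were higher and 1 was lower, which is 34.5% and 3.45% where 25.9% and 34.4% of all rows were called, with a median log2 fold change of 0.45, against -0.19 over all rows. Rows with a gene symbol had 32.4% higher and 29.1% lower, with a median of 0.07. Trim28, the scaffold that the KRAB box binds, measured 5.09, 5.01 and 5.09 on the KCS arrays, against 5.01, 4.58 and 5.04 on the KC arrays, a change of 0.18 ± 0.19 (SE) (limma, adjusted p = 0.436). Resf1, a retroelement silencing factor that works with Setdb1, was higher by 3.63 ± 0.26 (SE) (limma, adjusted p = 0.000155) and measured 3.71, 4.55 and 4.49 on the KCS arrays, against 0.59, 0.70 and 0.58 on the KC arrays. The ATPase Morc3 was higher by 2.01 ± 0.22 (SE), the remodeller Chd3 by 1.66 ± 0.19 (SE) and the maintenance DNA methyltransferase Dnmt1 by 1.47 ± 0.20 (SE) (limma, adjusted p = 5.47e-04, 6.18e-04 and 0.00113). The deacetylase Hdac1 was higher by 1.61 ± 0.23 (SE) (limma, adjusted p = 0.00129). Mphosph8, a chromodomain protein of the HUSH silencing complex, was the 1 gene of the list called lower, at -0.83 ± 0.17 (SE) (limma, adjusted p = 0.00659), and it is named because of that count. The acinar and stromal marker sums given above differ between the same arrays, and their part in these changes was not tested.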

How the data were processed

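The 6 arrays held 62976 spots each, 1 array per sample, with 3 KCS and 3 KC samples on 2 slides. Per the file headers, signals were extracted by Agilent Feature Extraction 12.0.3.1, whose deposited processed signal, an intensity, is background-corrected and in scanner units. The deposited value table holds log2 values of the authors for 36110 non-control probes, which matched the scaling below with each probe centred on its median (r = 0.999999 or above), so their scale, centring and direction are known. Its column medians were -0.05, -0.03 and -0.04 for KCS and -0.01, 0.05 and 0.10 for KC. Per the labels, RNA was amplified and labelled with Cy3.

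Each array's 75th percentile over non-control probes was subtracted from log2 signals, after spots of 1 probe were averaged without outlier spots (88 to 140 per array). There was no saturated spot. The filter asked for a probe to stand well above background on 3 or more of the 6 arrays. Of 56605 probes, 33767 were named by unversioned accession through RefSeq (GRCm38.p6, another build than the files', so only that table's own promoter positions are printed). KCS was compared with KC by limma 3.58.1 (R 4.3.3, lmFit and eBayes, no covariates, two-sided), adjusted over 27102 rows at 0.05. Where a probe was not well above background in any sample of a group, its fold is a lower bound: per dim array the probe's own signal or, if higher, that array's lowest signal well above background was averaged and set under the bright group's mean. The number of arrays limits the precision.

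Described per array were the called genes without overlap that changed most, up to 10 in a direction, the 4 smallest changes, probes called both ways, the 4 brightest in each group, Setdb1, Trim28 and 6 pathway genes of smallest p. The remaining called genes were added, and genes between the members were named after their values were seen. Members and lists were chosen with earlier results of these data known. Grouping by protein features was not made, as no protein table was used. Alternatives were other scalings, filters, probe rules and eBayes settings, replicate and slide blocks, the second slide alone and single arrays left out. The planned normexp on mean signals was run on median signals. Promoter identities used edlib 1.3.9.post1, and tables Python 3.11.15 and pandas 2.3.3. Not reported here are 1 allele that both genotypes carry and 1 of the 6 pathway genes. The steps were tested on simulated data.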

Additional observations from a re-analysis of the deposited data

How the results depend on the processing

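Of the 24 called genes, 9 had the same call under every alternative run for them at the threshold of 0.05: Zfp984, Zfp987, Zfp992, Zfp985, Zfp982, Zfp990, Zfp975, Zfp976 and Zfp995. Zfp985 and Zfp982 did not pass the filter that asked for all 6 arrays well above background, so that setting did not test them. At 0.01 Zfp985 lost its call (limma, adjusted p = 0.0108). The count of genes higher in KCS, 15, came to 23 under median centring, 46 under spike-in scaling and 8 at an adjusted p under 0.01. The count of genes lower, 9, was 2 under median centring, 0 under spike-in scaling (0 at an unadjusted p under 0.05), 2 at an adjusted p under 0.01 and 14 with each probe on its own. Leaving out 1 array gave 10 to 13 higher and 4 to 7 lower, with medians of 0.19 to 0.30. The median fold change, 0.24, became 0.60 under median centring and 3.14 under spike-in scaling. Spike-in scaling adds the same amount to every gene and so turned all 9 genes called lower, to 1.01 for Zfp963 (limma, adjusted p = 0.145), 1.24 for Zfp939, 1.56 for Zfp972, 1.60 for Zfp956, 1.68 for Zfp941, 2.10 for Zfp931, 2.11 for Zfp954, 2.37 for Zfp943 and 0.97 for Zfp937 (limma, adjusted p = 0.0822). Zfp943 also turned, to 0.30, with the mean of its probes, which change by -0.52 and 1.12. Among all rows, calls were 42.9% higher, against 22.3% without a filter, 56.5% with median centring and 96.8% with spike-in scaling. With the replicate number as a replicate block 16 genes were higher and 9 lower, and the calls of Zfp943 and Zfp944 ended (limma, adjusted p = 0.068 and 0.0788) while Zfp950 was called (0.0356). The labels give the numbers no meaning, and replicate 1 of both groups shares a slide. Deviations of same-numbered samples correlated at 0.33, 0.04 and 0.14, and KCS replicate 2 correlated best with KC replicate 3 (0.18), so the numbers were not taken as pairs. Chromosome 4 calls were 5 of 7 when probes had to be well above background on all 6 arrays, and 6 or 7 of 9 with 1 array left out. No alternative run turned the direction of the 15 genes called higher. Normexp on median signals and the chromosome 4 counts were chosen after seeing the data. Probes near background limit Zfp938, Zfp940, Zfp945, Zfp951 and Zfp982, which have only a bound in KC. They also limit Zfp957, Zfp971, Zfp974 and Zfp985, which were well above background on only 1 KC array. The fitted changes of these genes rest partly on KC signals that were not well above background.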
